A study of Mus musculus with 2 samples.

Results

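The genes described here make sterols and fatty acids, control that synthesis, or export sterols from the cell. They were chosen by name, as the 39 genes of 5 role groups, with earlier results of these data known. They were taken from the array through the platform annotation, using probe sets (groups of short probes against a transcript) assigned to exactly 1 gene. Of the 39 genes, 37 had such a probe set, out of 18193 genes named on the array, and they had 84 probe sets of 45037. Acat2 and Nr1h2 had none, and their signals were not analysed here. Splenic CD4 T cells of wild-type C57BL/6 mice, sorted magnetically to a purity above 98%, were stimulated for 2 days through CD28 and, on coated plates, through the T cell receptor, and were harvested 3 days later. The CD103+ Th1 culture received 3 ng/ml IL-4, 10 ng/ml IFN-γ and 3 ng/ml TGF-β. The Th1 culture received 1 ng/ml IL-12 together with 1 µg/ml of the IL-4-blocking antibody 11B11. With a single array for each culture, differences have no replicate check, and neither a test nor a p-value is given. The labels give neither the age nor the number of the mice.

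Cells make cholesterol from acetyl-CoA through mevalonate, squalene and lanosterol. The transcription factors SREBP-1 and SREBP-2 drive the enzymes of this route and of fatty acid synthesis: SCAP carries the SREBP precursors out of the endoplasmic reticulum for cleavage, and INSIG proteins hold them back when sterols are plentiful. The liver X receptors (LXR) sense oxysterols and drive the genes of sterol export. Activated T cells turn on lipid synthesis to build membranes as they grow and divide.

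Promoter sequences of 31 of the 39 genes were found in RefSeq (mouse build GRCm38.p6), as windows from 250 bases before to 50 bases after each listed transcription start. They were searched on both strands for TCACNCCAC (the letters of a classic sterol regulatory element, which SREBP binds), CCAAT (the letters bound by NF-Y, a factor that acts together with SREBP at many sterol gene promoters) and GGGCGG (bound by Sp1). A gene was counted when any of its listed promoters held the letters, and a base could belong to more than 1 motif. CCAAT was found at 14 of 15 sterol synthesis genes, the exception being Acat2, against 41.1% of all 27025 genes of the promoter table and 42.8% of the 9128 measured genes with a promoter. It was also found at 4 of 5 genes of SREBP control and sterol transport, 4 of 7 fatty acid genes and 1 of 4 efflux and LXR genes. GGGCGG was found at 14 of the 15 sterol synthesis genes and 5 of 5 genes of SREBP control and sterol transport. It was found at 3 of 7 fatty acid genes and 2 of 4 efflux and LXR genes, against 68.5% of measured genes with a promoter. TCACNCCAC was found at Hmgcs1 and at no other of the 31 genes, against 1.44% of all genes in the table. These are matches of letters in one window and not measured binding sites. The 180 bases before the start are shown for 4 sterol synthesis genes with lower signal in CD103+ Th1 (Hmgcs1, Idi1, Lss and Hsd17b7), for Ebp, the 1 sterol synthesis gene with the opposite sign, for the fatty acid gene Fasn and for the LXR target Mylip. Capitals mark CCAAT, or ATTGG where it lies on the other strand, and in Hmgcs1 also the sterol regulatory element.
Hmgcs1: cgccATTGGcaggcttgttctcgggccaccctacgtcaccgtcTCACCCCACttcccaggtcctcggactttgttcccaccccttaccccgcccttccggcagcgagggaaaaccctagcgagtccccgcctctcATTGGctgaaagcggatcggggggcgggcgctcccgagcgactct
Idi1: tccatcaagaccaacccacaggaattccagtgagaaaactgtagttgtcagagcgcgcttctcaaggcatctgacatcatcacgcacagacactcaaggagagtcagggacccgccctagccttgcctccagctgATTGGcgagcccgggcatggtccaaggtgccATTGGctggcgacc
Lss: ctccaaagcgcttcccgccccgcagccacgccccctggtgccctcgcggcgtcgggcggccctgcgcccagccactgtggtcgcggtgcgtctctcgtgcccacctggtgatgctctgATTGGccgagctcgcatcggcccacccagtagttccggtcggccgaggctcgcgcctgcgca
Hsd17b7: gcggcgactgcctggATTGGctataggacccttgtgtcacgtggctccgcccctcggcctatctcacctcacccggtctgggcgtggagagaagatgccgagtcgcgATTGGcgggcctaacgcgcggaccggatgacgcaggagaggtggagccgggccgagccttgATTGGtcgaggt
Ebp: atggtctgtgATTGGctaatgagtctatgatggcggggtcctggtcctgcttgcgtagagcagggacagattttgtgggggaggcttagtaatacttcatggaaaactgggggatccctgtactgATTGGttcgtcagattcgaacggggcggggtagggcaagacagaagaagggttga
Fasn: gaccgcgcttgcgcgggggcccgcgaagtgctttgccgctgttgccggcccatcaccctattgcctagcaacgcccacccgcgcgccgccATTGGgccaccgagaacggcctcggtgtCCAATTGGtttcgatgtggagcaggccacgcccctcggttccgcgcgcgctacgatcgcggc
Mylip: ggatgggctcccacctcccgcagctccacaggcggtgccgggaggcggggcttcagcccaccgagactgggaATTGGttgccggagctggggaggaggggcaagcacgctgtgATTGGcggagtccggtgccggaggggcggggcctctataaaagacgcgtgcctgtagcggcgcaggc
The Hmgcs1 stretch is chr13:119690171-119690350 on the plus strand, and its sterol regulatory element begins 137 bases before the start. The Idi1 stretch is chr13:8885426-8885605 on the plus strand, and that of Lss chr10:76531425-76531604 on the plus strand. Hsd17b7 lies at chr1:169969206-169969385 on the minus strand and Ebp at chrX:8193513-8193692 on the minus strand. Fasn lies at chr11:120824548-120824727 on the minus strand and Mylip at chr13:45389562-45389741 on the plus strand. Each stretch holds CCAAT at least once, also those of Ebp and Mylip, whose signals were higher in CD103+ Th1. In Fasn a CCAAT and an ATTGG overlap and read as one run of capitals.

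Signals below are in arbitrary linear units from the brightest probe set of each gene, and the log2 ratio is that of CD103+ Th1 over Th1. A gene counted as measured when at least 1 array reached a floor of 78.5, the median of all signals, and all 37 members lay above it on both arrays. Median signals were 78.0 and 78.8 on the arrays and trimmed means 498 on both. The T cell genes Cd3d, Cd3e, Cd3g and Cd4 were above the floor on both arrays, as the label asks. Of 7 B cell markers, 4 were under the floor on both arrays, Ms4a1, Cd79a and Pax5 among them, while Cd79b had 244 in CD103+ Th1 and lay under the floor in Th1, at least 3.11-fold higher. The summed signal of all 7 was 547 in CD103+ Th1 and 458 in Th1. Of 12 macrophage and dendritic cell markers, 4 were under it on both (Cd14, Lyz2, Itgam and Itgax), and the sums were 4367 and 4122. Most of each sum came from Cst3, with 3146 in CD103+ Th1 and 3193 in Th1, so the sums say little about the other markers. Of those, Mpeg1 had 660 in CD103+ Th1 and lay under the floor in Th1, at least 8.41-fold higher, and Cd68 was 2.25-fold lower. No marker had a signal of 0. The 2 CD8 T cell markers, Cd8a and Cd8b1, summed to 3647 and 1163. The part of other cells in the results below was not tested, and in such bulk RNA fewer cells expressing a gene and less RNA per cell cannot be told apart.

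Sterol synthesis genes had lower signals in CD103+ Th1 along nearly the whole route. Of 17 measured genes 16 had a log2 ratio below 0, where 52.6% of all 11194 measured genes did. A difference of at least 1.5-fold downwards was seen in 11 of the 17, against 13.5% of measured genes, and of at least 2-fold in 4 (Mvd, Idi1, Lss and Hsd17b7), against 4.90%. The 2-fold calls rest on the probe set taken: when the measured probe sets of each gene were averaged 0 of the 17 passed 2-fold, and without suffixed probe sets, whose probes can be shared between transcripts, 1 (Idi1) did. None was 1.5-fold higher, against 12.5%. Their median log2 ratio was -0.74, a 1.67-fold lower signal, while that of all measured genes was -0.03. Of the 35 measured probe sets of these genes, 31 were below 0. Because the genes were chosen with earlier results of these data known, the shares beside them are descriptive and test nothing. Among the 6516 measured genes as bright as the dimmest sterol synthesis gene, a background chosen after the values were seen, 51.4% were below 0 and 10.9% at least 1.5-fold lower.

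**Figure D1:**
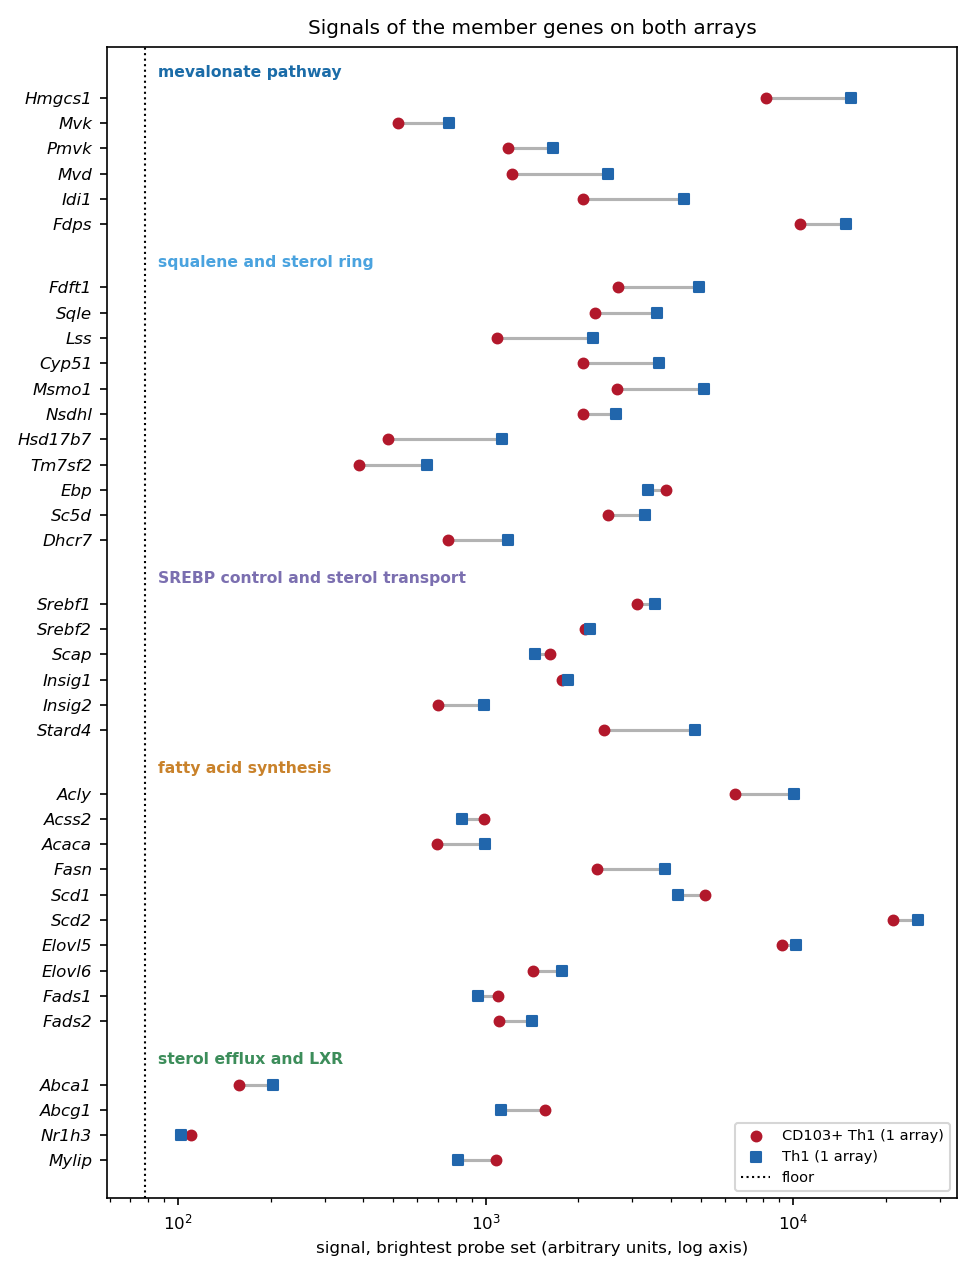
Signal of the brightest probe set (arbitrary units, log axis) of the 37 member genes on the CD103+ Th1 array (circles) and the Th1 array (squares), with a line joining both arrays and the floor of 78.5 dotted. In 16 of 17 sterol synthesis genes the circle lies left of the square, and Ebp is the exception.

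In the mevalonate pathway, which turns acetyl-CoA into the isoprene units of sterols, all 6 measured genes were lower, with a median of -0.73. Hmgcs1, the synthase that makes HMG-CoA, had a signal of 8180 in CD103+ Th1 against 15453 in Th1, a 1.89-fold difference, and its 5 probe sets ran from -1.30 to -0.71 on the log2 scale. Mvd, which decarboxylates mevalonate diphosphate to isopentenyl diphosphate, had 1218 and 2501 (2.05-fold lower), with its other probe set at -0.86. Idi1, the isomerase that converts isopentenyl diphosphate, had 2069 and 4418 (2.14-fold lower), with its other at -0.80. These 3 genes differed most in this stretch, and each had all of its probe sets below 0. Mvk, the mevalonate kinase, had signals of 520 and 759 (1.46-fold lower), with a dimmer probe set at only -0.18. Pmvk, which adds the other phosphate, had 1182 and 1660 (1.40-fold lower). Fdps, which joins isoprene units to farnesyl diphosphate, the branch point to sterols and prenyl groups, had 10548 and 14808 (1.40-fold lower).

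The genes from squalene to cholesterol were lower by a like amount, with a median of -0.74 over 11 genes, but less evenly. Fdft1, the squalene synthase, had 2698 in CD103+ Th1 against 4946 in Th1 (1.83-fold lower). Sqle, the oxygen-dependent squalene epoxidase, had 2261 and 3610 (1.60-fold lower). Lss, which closes the ring to lanosterol, had 1089 and 2230 (2.05-fold lower), and its other probe sets gave -0.83 and -0.31. Fdft1, Sqle and Lss, from squalene synthesis to ring closure, thus all had lower signals. Cyp51, the lanosterol demethylase, had 2069 and 3652 (1.77-fold lower), with 3 probe sets from -0.90 to -0.76. Msmo1, the oxidase that starts the removal of further methyl groups, had 2679 and 5121 (1.91-fold lower), but a dim probe set, above the floor in CD103+ Th1 alone, gave 0.45. The partners of Msmo1 in that removal differed from each other: Nsdhl had 2070 and 2659 (1.28-fold lower), and Hsd17b7 had 482 and 1134 (2.35-fold lower).

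Hsd17b7 had the lowest log2 ratio of the 37 members, -1.23, but this came from a probe set whose suffix marks probes shared with other sequences. Its other brighter probe sets gave -0.79 and -0.70, and a dim one 0.42. Tm7sf2, a sterol reductase, had 387 and 646 (1.67-fold lower). Dhcr7, the reductase that yields cholesterol at the end of one route, had 754 and 1187 (1.57-fold lower). Sc5d, the desaturase before it, had 2508 and 3309 (1.32-fold lower), with another probe set at 0.17. Ebp, the isomerase that moves a double bond in the ring, had 3862 and 3373 and was 1.14-fold higher, on its 1 probe set. The late enzymes Nsdhl, Ebp and Sc5d thus had the ratios nearest to 0 in this group.

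**Figure D2:**
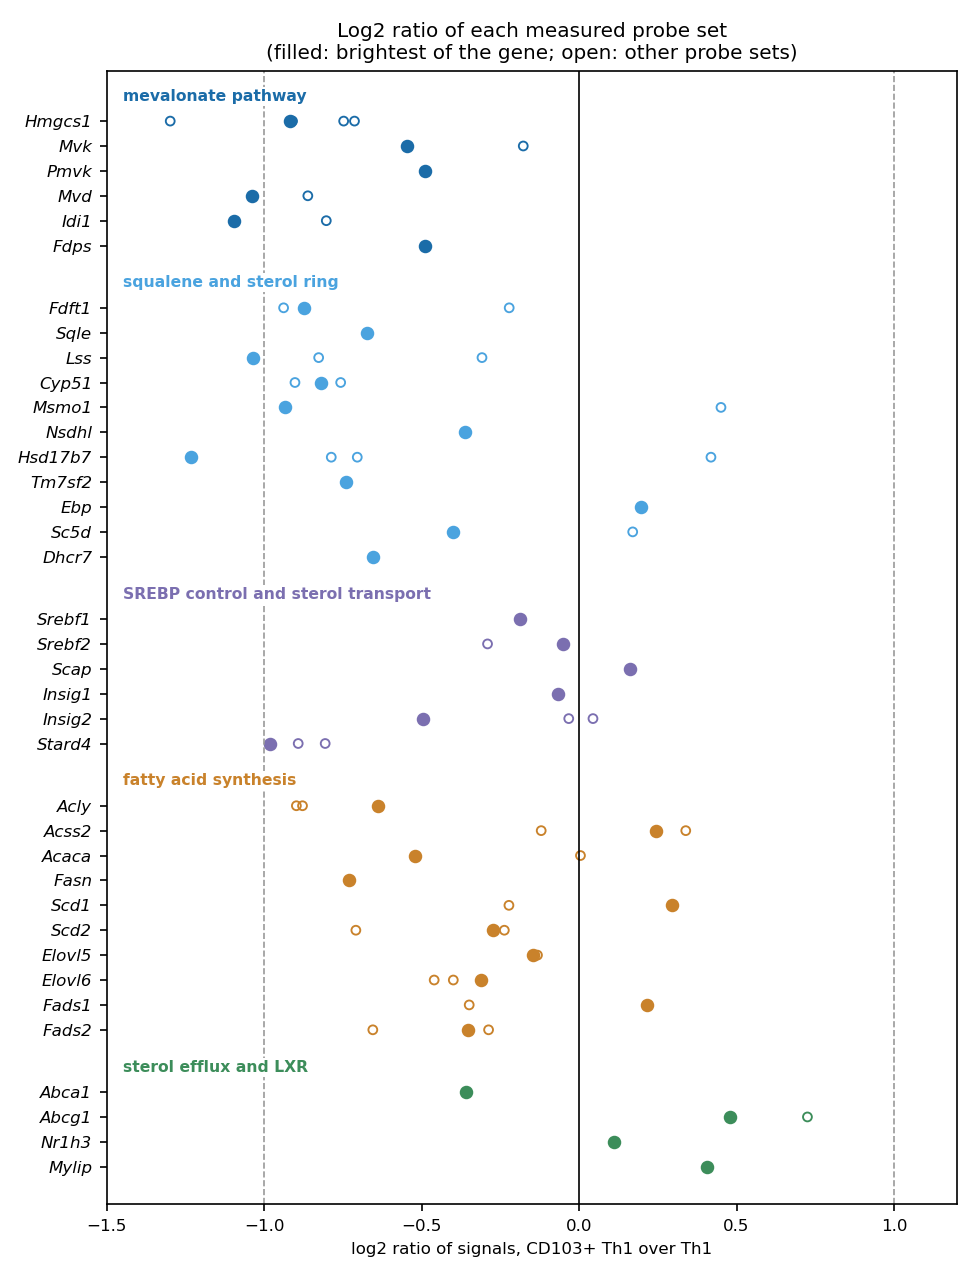
Log2 ratio of signals, CD103+ Th1 over Th1, of each measured probe set of the 37 members, with the brightest of a gene filled, the others open, and dashed lines at 2-fold. The filled points of Mvd, Idi1, Lss and Hsd17b7 lie beyond 2-fold lower, and Msmo1, Hsd17b7 and Sc5d are the sterol synthesis genes with probe sets on both sides of 0.

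Genes of SREBP control were nearly level, in contrast to Stard4. Srebf2, which encodes the SREBP most tied to sterol synthesis, had 2104 in CD103+ Th1 against 2180 in Th1, a log2 ratio of -0.05, and a dimmer probe set gave -0.29. Srebf1, for the SREBP tied to fatty acid synthesis, had 3117 and 3550 (1.14-fold lower), and the files used here do not say which of its transcripts the probe set detects. Scap had 1617 and 1445 (1.12-fold higher). Signals of these genes thus differed by little between the arrays. Insig1, itself an SREBP target, had 1768 and 1853 (1.05-fold lower). Insig2 had 700 and 988 (1.41-fold lower), but its other 2 probe sets gave 0.04 and -0.03. Stard4, which carries cholesterol between membranes and is an SREBP target as well, had 2431 and 4801 (1.97-fold lower), and its 3 probe sets ran from -0.98 to -0.81. Its ratio was the lowest of this group. Of the 6 genes 5 were below 0, against 52.6% of all measured genes, and the median was -0.13.

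Fatty acid synthesis genes had a median ratio nearer to 0 than sterol synthesis genes. Of 10 measured genes 7 were below 0, against 52.6% of all measured genes. The 1.5-fold mark was passed downwards by Acly and Fasn alone, 2 of 10 against 13.5%, and the 2-fold mark by 0 against 4.90%. The median was -0.29. Acly, which makes cytosolic acetyl-CoA from citrate for both fatty acids and sterols, had 6459 in CD103+ Th1 against 10047 in Th1 (1.56-fold lower), and its 3 measured probe sets ran from -0.90 to -0.64. Acss2, which makes acetyl-CoA from acetate, had 991 and 837 (1.18-fold higher), with a dim probe set at -0.12. The 2 sources of acetyl-CoA thus had opposite signs. Acaca, the carboxylase that makes malonyl-CoA, had 697 and 999 (1.43-fold lower), and a probe set at the floor gave 0.00. Fasn, the fatty acid synthase, had 2298 and 3816 (1.66-fold lower) on its 1 probe set and had the lowest ratio of this group, -0.73.

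Genes that lengthen or desaturate fatty acids differed less between the arrays. The desaturase gene Scd2 had 21083 and 25503 (1.21-fold lower), with its other 2 probe sets at -0.71 and -0.24. Its paralog Scd1 had 5175 and 4214 (1.23-fold higher), but its other probe set gave -0.22. The elongase gene Elovl6 had 1425 and 1768 (1.24-fold lower) and Elovl5, an elongase of polyunsaturated fatty acids, 9200 and 10187 (1.11-fold lower). Their probe sets were all below 0. Fads2 and Fads1, the desaturases of polyunsaturated fatty acids, went apart: Fads2 had 1108 and 1415 (1.28-fold lower, 3 probe sets from -0.66 to -0.29), and Fads1 1098 and 946 (1.16-fold higher, other probe set -0.35). Acss2, Scd1 and Fads1, the 3 genes of this group above 0, all had a probe set of the other sign.

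**Figure D3:**
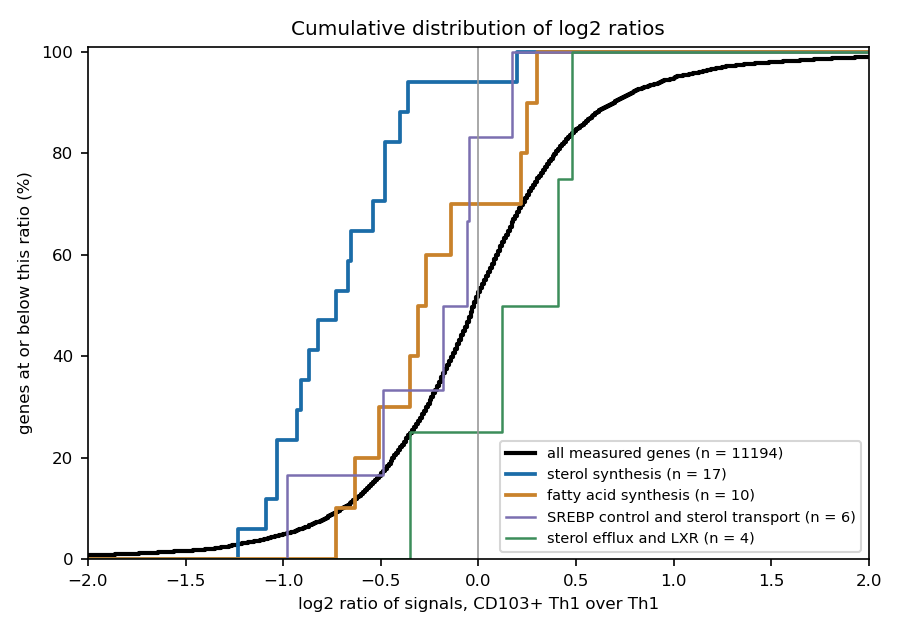
Cumulative share of genes (%) at or below each log2 ratio, CD103+ Th1 over Th1, for all 11194 measured genes and for 4 groups of members. From -1.23 upwards the line of the 17 sterol synthesis genes lies left of that of all genes, with a median of -0.74 against -0.03, and that of the 4 efflux and LXR genes lies to the right over most of its length.

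Sterol efflux and LXR genes differed between the arrays by small amounts and in both directions. Abcg1, a sterol exporter and LXR target, had 1565 in CD103+ Th1 against 1122 in Th1 (1.39-fold higher), and its other probe set gave 0.73. Mylip, an LXR target that marks lipoprotein receptors for degradation, had 1081 and 816 (1.32-fold higher) on its 1 probe set. Nr1h3, which encodes LXRα, had 110 and 102, near the floor (1.08-fold higher). Abca1, the other main exporter and LXR target, had 158 and 203 (1.28-fold lower), and its other 2 probe sets were under the floor on both arrays. The 2 exporters thus had opposite signs. Of the 4 genes 3 were above 0, where 47.4% of measured genes were, and 0 of 4 reached 1.5-fold in either direction, with a median of 0.26. The ratios of this group ran from -0.36 to 0.48. Among sterol synthesis genes Ebp, at 0.20, lay above Abca1 and Nr1h3, and Nsdhl, at -0.36, was level with Abca1. With quantile normalization of the arrays, Abca1 (-0.41) lay below Nsdhl (-0.36) and Sc5d (-0.39).

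Other genes around the sterol route gave no common direction. Of a list of 14 genes of uptake, storage, transport and further sterol synthesis, 8 had a probe set and 7 were measured. Of these 3 were below 0, against 52.6% of all measured genes, and 4 above, against 47.4%, with a median of 0.12. Stard3, which tethers endosomes and carries cholesterol, had 1184 in CD103+ Th1 against 598 in Th1 (1.98-fold higher). Scarb1, the receptor for high-density lipoprotein, had 955 and 1742 (1.82-fold lower), and Vldlr, a lipoprotein receptor, 1623 and 2490 (1.53-fold lower). Among genes that process SREBP or take part in sterol-regulated protein degradation, 8 of 9 had a probe set and were measured. Here 3 were below 0 and 5 above, beside the same shares of 52.6% and 47.4%, with a median of 0.22. The 2-fold mark was passed upwards by 2 of them, where 5.08% of measured genes did so, and downwards by 1, against 4.90%. Mbtps1, the site-1 protease that makes the first cut in SREBP, had 2835 and 1394 (2.03-fold higher), with 2 dim probe sets at 0.29 and 0.30. Rnf139, a ubiquitin ligase of the endoplasmic reticulum, had 2490 and 1101 (2.26-fold higher). Erlin1, a cholesterol-binding protein of that membrane, had 284 and 663 (2.33-fold lower).

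Of 25 further genes of fatty acid and lipid synthesis, 19 were measured, 16 below 0, against 52.6% of all measured genes, and 3 above. The 2-fold mark was passed downwards by 3 of the 19, against 4.90%. The median was -0.28, close to that of the fatty acid members. Hacd1, a dehydratase of the elongation cycle, had 185 in CD103+ Th1 against 889 in Th1 (4.80-fold lower), with probe sets at -2.26 and -2.15. Me1, the malic enzyme that supplies NADPH, had 100 and 205 (2.04-fold lower), and Dgat2, which completes triglycerides, 115 and 234 (2.04-fold lower), both dim. Of 12 further LXR and efflux genes 7 were measured, 4 below 0, against 52.6% of all measured genes, and 3 above, with a median of -0.17. In that list Rxrb, an RXR partner of LXR, had 2076 and 1218 (1.70-fold higher), Abcg4 282 and 200 (1.41-fold higher, its other probe set at -0.07) and Abca7 1358 and 990 (1.37-fold higher). Abca3 differed by a like amount downwards, with 858 and 1174 (1.37-fold lower) and a dimmer probe set at -0.67. Rxra, counted below 0, had 205 and 231 (1.13-fold lower), but another probe set gave 1.00. Apoe, an LXR target in macrophages, was under the floor on both arrays.

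Proliferation genes were counted on the same scale. Of 17 measured genes 15 were below 0, against 52.6% of all measured genes, 0 were at least 1.5-fold lower, against 13.5%, and the median was -0.19. Mki67 had 11210 in CD103+ Th1 against 12329 in Th1. Rrm1, the lowest of them on the brightest probe set, had 4605 and 6809 (1.48-fold lower). Mcm3 had 4267 and 6094 (1.43-fold lower), but its 5 probe sets ran from -1.12 to -0.51, and some of the dimmer ones passed 1.5-fold. The part of proliferation in the differences of lipid genes was not tested.

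**Figure D4:**
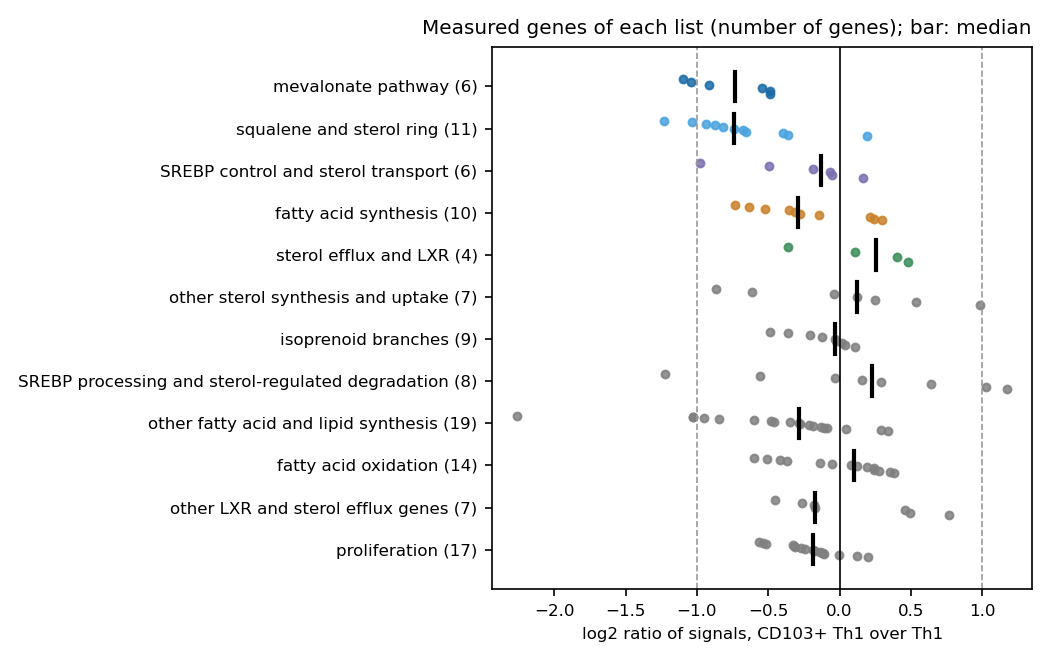
Log2 ratio of signals, CD103+ Th1 over Th1, of each measured gene of the 5 member groups (coloured) and of 7 other lists (grey), with the number of measured genes in brackets, bars at the medians and dashed lines at 2-fold; the vertical spread within a list has no meaning. The medians of the mevalonate genes (-0.73) and of the squalene and sterol ring genes (-0.74) are the lowest of the 12 lists.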

How the data were processed

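Total RNA of 2 cultures was hybridised to 1 Affymetrix array each. The authors deposited 1 linear signal intensity per probe set, and the submitters' processing notes name GCOS; version, scaling target and filters are not given in the sources used here. No further scaling was applied. Signals under a floor at the median over both arrays (78.5) were raised to it, and probe sets that never reached it got no ratio. Probe sets with 1 symbol in the platform annotation (34945; 932 had several, 9160 none listed) were named, 34741 of them updated by gene identifier to GRCm38.p6 symbols. A gene was represented by its brightest probe set (mean log2 signal over both arrays, after the floor). Folds and log2 ratios were computed in Python 3.11.15 with numpy 2.4.6 and pandas 2.3.3, and the steps were tested on simulated data. The members and lists were chosen with earlier results of these data known. Named genes were all members with a probe set and the up to 3 genes with the largest absolute ratio of each other pathway list. Cell type markers, Mki67, Rrm1, Mcm3, Abca3, Rxra, Apoe and Ggps1 were named besides, after their values were seen. With 1 array per group, the number of arrays limits the precision. Alternatives were 3 scalings, 2 other floors, a pseudocount, 2 choices of probe set and a 1.5-fold threshold.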

Additional observations from a re-analysis of the deposited data

How the results depend on the processing

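The median log2 ratio of sterol synthesis genes lay between -0.81 and -0.66 under all alternatives run, and was -0.80 on the next brightest probe set of the 10 genes that had one (8 of them below 0), an alternative chosen after seeing the data. A median was taken as moved past 0.1. The count of sterol synthesis genes at least 2-fold lower was 0 with the mean of all probe sets, 1 without suffixed probe sets and 11 at 1.5-fold. Those below 0 were 16 of 17 throughout, except 14 of 16 without suffixed probe sets, where Msmo1 rested on its dim probe set. The efflux and LXR median was 0.44 with the floor at the 75th percentile, which left 2 genes, and 0.41 without suffixed probe sets. Fads1 changed sign with the mean of probe sets. Over all measured genes, 2-fold lower and higher counts were 549 and 569, and became 1234 and 986 with the floor at the 25th percentile, 199 and 268 at the 75th, and 1509 and 1400 at 1.5-fold. The cause of these changes was not tested beyond what each setting does. No paired analysis was possible because each group has 1 array. Low signals such as those of Nr1h3 and Abca1, near the floor, are the least certain.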

Other observations

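Branches that leave the sterol route after farnesyl diphosphate, which make prenyl groups, dolichol and ubiquinone, were nearly level. Of 9 measured genes of this list 6 were below 0, against 52.6% of all measured genes, and 3 above. At 1.5-fold 0 were lower, against 13.5%, and 0 higher, against 12.5%. The median log2 ratio was -0.04. Ggps1, the synthase of geranylgeranyl diphosphate, had 542 in CD103+ Th1 against 537 in Th1. Coq2, a prenyltransferase of ubiquinone synthesis, had the lowest ratio (1276 and 1789, 1.40-fold lower). Nus1, a subunit of the dolichol-forming prenyltransferase, followed (1163 and 1497, 1.29-fold lower), and its 4 measured probe sets ran from -0.92 to -0.36. Fnta, a prenyltransferase subunit, had 3116 and 3600.

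Genes of fatty acid oxidation were divided. Of 14 measured genes 8 were above 0, against 47.4% of all measured genes, and 6 below, with a median of 0.10. At 1.5-fold 1 was lower, against 13.5%, and 0 were higher, against 12.5%. Hadh, a dehydrogenase of the mitochondrial cycle, had 4523 in CD103+ Th1 against 6868 in Th1 (1.52-fold lower). Its dimmer probe sets gave -0.40 and -0.13, short of 1.5-fold. Acadl, which acts on long chains, had 6516 and 9255 (1.42-fold lower) and Eci1 1106 and 1479 (1.34-fold lower). Cpt1a, which commits fatty acids to mitochondrial entry, had 1252 and 978 (1.28-fold higher), and the carrier gene Slc25a20 1862 and 1427 (1.31-fold higher). Cpt1a and Slc25a20 were named after their values were seen.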
